A study of Mus musculus with 4 samples.

Results

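The Notch genes described here are 10 of the 55367 gene names in a count table of tumour endothelial RNA. They were taken by name as a family: the ligand genes Dll1, Dll4, Jag1 and Jag2, the receptor genes Notch1 and Notch4, and the target genes Hes1, Hey1, Hey2 and Heyl. All 10 were in the table and all 10 passed the filter on low counts, so each was among the 16945 genes tested. The anti-CD93 group had 2 libraries from tumour-bearing C57BL/6 mice given an antibody against CD93, a surface receptor of endothelial cells. The control IgG group had 2 libraries from such mice given a control rat IgG. In both groups KPC cells, a mouse pancreatic cancer line, had been placed under the skin, the antibody was injected into the peritoneum 48 hours before the cells were taken, and the cells were sorted as CD31-positive and CD45-negative. No age, sex or number of mice per library is stated, so the p-values cover the scatter of these libraries alone, which may be technical.

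Notch signalling passes between touching cells. A ligand of the Delta-like or Jagged type on one side binds a Notch receptor on the other, the receptor is cut by an ADAM protease and then by gamma-secretase, and its inner part joins the DNA-binding protein RBPJ in the nucleus to switch on genes of the Hes and Hey families of repressors. In growing vessels of the mouse retina, Dll4 of the leading tip cells restrains sprouting in their neighbours through Notch, and Jag1 opposes Dll4.

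Assigned reads came to 17813993 and 13808077 in anti-CD93 replicates 1 and 2, and to 12264231 and 9364294 in control IgG replicates 1 and 2. Control IgG replicate 2 stood apart: across genes its log2 CPM correlated with the other libraries at r = 0.945 to 0.947, against 0.977 to 0.983 among the other 3, although genes are not independent replicates. It had the most detected genes, 27718 against 23796 to 25430 in the others, from the fewest reads. Its olfactory receptor genes summed to 359.6 CPM, against 52.0 to 56.6 CPM in the others, and mitochondrial rRNA took 6.20% of its reads, against 11.0% to 11.8%. The part of these differences in the results was not tested. All 9 endothelial markers were above 1 CPM (reads scaled to a common library size with TMM factors) in every library, with a sum of 6401 and 6354 CPM in the anti-CD93 libraries and 6666 and 8070 CPM in the control IgG libraries. Ptprc, which encodes CD45, was at 5.08 and 2.32 CPM with anti-CD93 and at 2.37 and 4.71 CPM with control IgG. All 6 epithelial tumour markers were also above 1 CPM in every library, and summed to 2326 and 1931 CPM with anti-CD93 and to 1643 and 2418 CPM with control IgG. Pecam1, which encodes CD31, was at 1661 and 1663 CPM with anti-CD93 and at 1685 and 1872 CPM with control IgG. The 6 fibroblast markers summed to 1761 and 2196 CPM with anti-CD93 and to 2103 and 2835 CPM with control IgG. Cd93, the gene of the antibody's target, was at 1716 and 1514 CPM with anti-CD93 and at 1530 and 1759 CPM with control IgG.

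No Notch gene passed the test between the groups, although 5 of the 10 did not overlap. Of the 10 members, 0 passed edgeR's quasi-likelihood test at an adjusted p under 0.05, as did 0.00% of all genes tested. Also 0 of the 10 members were at an unadjusted p under 0.05, against 1.99% of all genes higher and 2.50% lower with anti-CD93 (761 genes in all). DESeq2 called 5 genes and limma-voom called 0, with 0 members among either. Jag1 alone of the members had a higher mean with anti-CD93, while 9 of 10 had a log2 fold change below 0, as did 50.9% of all genes. The members' median log2 fold change was -0.20, against -0.0092 over all genes tested, and all 9 endothelial markers were also below 0, with a median of -0.21. In 1 of 10 members both anti-CD93 libraries lay above both control IgG libraries, against 20.1% of all genes, and in 4 of 10 both lay below, against 19.7%. With each library's trend with GC content and gene length removed, the median was -0.016 for the members, with 6 of 10 below 0. It was -0.076 for the endothelial markers, with 6 of 9 below 0, and -0.0061 over all genes. The part of that trend in these shifts was not tested. In bulk RNA, fewer cells of a type and less RNA per cell cannot be told apart.

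Read per length, the family spanned a wide range of levels in these libraries. Epithelial and fibroblast markers were read in them too, and the part of each cell type in these levels was not tested. Dll4, the ligand of sprouting and arterial endothelium, stood highest at 126 ± 14.6 CPM per kb of exon (SD over all 4 libraries), above 98.8% of the tested genes. Hes1 followed at 109 ± 18.4 CPM per kb and Notch4, a receptor found mainly in endothelium, at 83.7 ± 17.8 CPM per kb. The libraries of Dll4 and Hes1 overlapped on this scale, as did those of Hes1 and Notch4. Within each library Dll4 lay above Hes1, and Hes1 lay above Notch4 in all but control IgG replicate 2. Notch1 at 42.8 ± 5.58 and Hey1 at 38.9 ± 2.51 CPM per kb formed the next step and overlapped each other, below every Notch4 value. Jag2 at 26.3 ± 3.27 and Jag1 at 25.9 ± 4.13 CPM per kb also overlapped each other, and Dll1 was at 18.2 ± 1.96 CPM per kb. Heyl at 1.51 ± 0.477 and Hey2 at 0.209 ± 0.172 CPM per kb were far lower than the rest, and Hey2 exceeded only 2.36% of the tested genes.

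**Figure D1:**
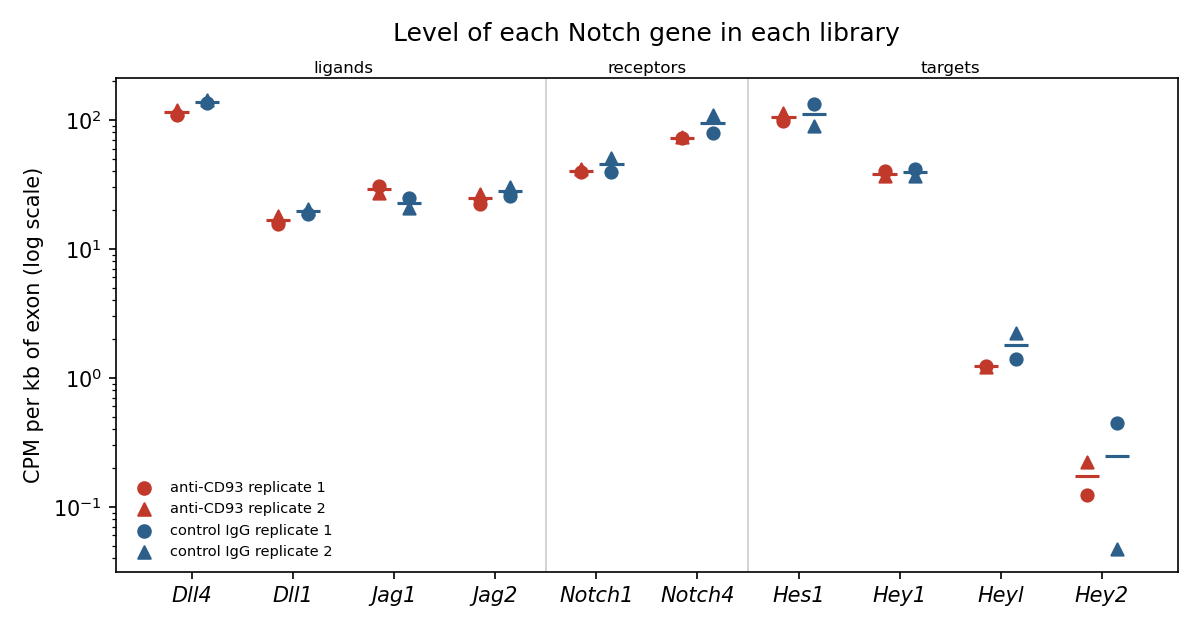
Level of each of the 10 Notch genes as CPM per kb of exon on a log axis, with one point per library (circle, replicate 1; triangle, replicate 2) and a line at each group mean (n = 2). Dll4 sits near 114 with anti-CD93 and 138 with control IgG, while Heyl and Hey2 sit far below the other genes in both groups.

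Among the ligands, Jag1 was higher and Dll4 lower in both anti-CD93 libraries than in both control IgG libraries, without passing the test. Dll4 (chromosome 2, 119325784 to 119335962, GRCm38) had 422 and 459 CPM in the anti-CD93 libraries, against 517 and 546 CPM in the control IgG libraries. The groups did not overlap. Its log2 fold change was -0.27 (SE 0.16), with an adjusted p of 0.812 by edgeR. Leaving out control IgG replicate 1 gave -0.31, from a control group of replicate 2 alone. Removing each library's GC and length trend gave -0.058 and scaling to the endothelial markers gave -0.073, with edgeR adjusted p values of 0.949 and 0.916. That scaling moved the median log2 fold change of all genes to 0.18. In its exons, 214 bases, or 5.56%, are also annotated to Gm14207, and reads there could not be given to either gene by strand.

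Jag1 (chromosome 2, 137081456 to 137116644), a ligand of the Jagged type, had 179 and 158 CPM in the anti-CD93 libraries, against 144 and 122 CPM in the control IgG libraries. Every anti-CD93 value lay above every control IgG value. The log2 fold change was 0.34 (SE 0.18), with an adjusted p of 0.812 by edgeR and an unadjusted p of 0.0987, the smallest of the 10 members. Leaving out control IgG replicate 2 gave 0.22. Leaving out control IgG replicate 1 gave 0.47, from a control group of replicate 2 alone. Epithelial cells can also make Jag1, and the epithelial genes Epcam and Cdh1 did not overlap between groups either. Epcam was at 34.1 and 41.1 CPM with anti-CD93 and at 21.7 and 23.4 CPM with control IgG. Cdh1 was at 351 and 290.0 CPM with anti-CD93 and at 216 and 210.4 CPM with control IgG. The 4 keratin genes of that list overlapped between the groups, and the part of tumour cells in the Jag1 values was not tested.

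The other ligand genes were closer between groups. Dll1 (chromosome 17, 15367354 to 15376872), the Delta-like ligand used in arterial vessels and many other tissues, had 66.3 and 76.0 CPM with anti-CD93, against 79.3 and 86.2 CPM with control IgG. These groups did not overlap but lay close together, with a log2 fold change of -0.22 (SE 0.18, adjusted p = 0.816 by edgeR). It was -0.11 without anti-CD93 replicate 1, -0.026 with the GC and length trend removed and -0.017 with scaling to the endothelial markers. Jag2 (chromosome 12, 112907819 to 112929776) had 156 and 186 CPM with anti-CD93, against 178 and 212 CPM with control IgG. The groups of Jag2 overlapped, and its log2 fold change was -0.19 (SE 0.19, adjusted p = 0.835 by edgeR). It was -0.056 when anti-CD93 replicate 1 was left out, -0.060 when control IgG replicate 2 was, and -0.32 when anti-CD93 replicate 2 was. It lay above 0, at 0.11, with the GC and length trend removed and at 0.022 with scaling to the endothelial markers.

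Ratios between members inside a library do not depend on how libraries are scaled to each other. They can still carry a GC or length trend of that library. For every 100 Dll4 reads there were 42.5 and 34.3 Jag1 reads in the anti-CD93 libraries, against 27.9 and 22.3 in the control IgG libraries. The log2 ratio averaged -1.39 ± 0.22 with anti-CD93 and -2.00 ± 0.23 with control IgG (SD, n = 2 each), a difference of 0.61, or 1.53-fold. By a two-sided exact permutation test its p was 0.333, which is the smallest that 2 libraries against 2 allow, so this design cannot reach 0.05. The difference ran from 0.45 to 0.78 with each library left out in turn. With each library's GC and length trend removed, the edgeR log2 fold changes were 0.33 for Jag1 and -0.058 for Dll4. The ratio itself was not computed with that trend removed. Dll1 and Jag2 kept closer to Dll4: the differences in their log2 ratios to Dll4 were 0.052 (exact permutation p = 0.667) and 0.087 (exact permutation p = 0.667), both with overlapping groups. The Jag2 ratio was added after the data were seen. In all 16 such ratios were computed, 10 of them against endothelial markers.

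As shares of the 4 ligand genes per kb of exon, Jag1 took 17.2% and 14.2% in the anti-CD93 libraries, against 12.2% and 9.80% in the control IgG libraries. Dll4 took 61.4% and 62.4% with anti-CD93, against 66.0% and 66.4% with control IgG. Dll4 was thus the largest share in all 4 libraries, and the Dll1 and Jag2 shares overlapped between the groups. Shares of one sum are tied to each other, so these 2 shifts are not separate results.

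**Figure D2:**
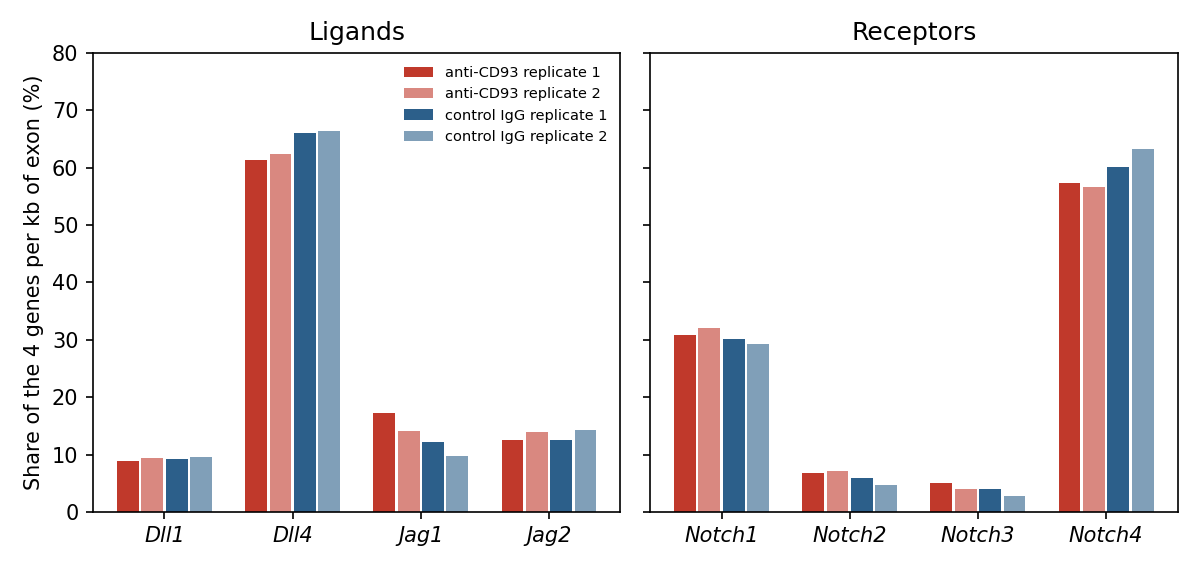
Share of each gene in the summed CPM per kb of 4 ligand genes (left) and 4 receptor genes (right), in percent, with one bar per library. Dll4 and Notch4 take the largest shares in all 4 libraries, and the Jag1 share is 17.2% and 14.2% in the anti-CD93 libraries against 12.2% and 9.80% in the control IgG libraries.

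The promoters of Dll4 and Jag1 are shown because this pair gave the widest gap between groups among the ligands. Each runs from 250 bases before to 30 bases after the RefSeq start (GRCm38.p6), written 5' to 3' on the gene's strand, chr2:119325534-119325813 on the plus strand for Dll4 and chr2:137116491-137116770 on the minus strand for Jag1. Capitals mark CACGCG or its reverse complement CGCGTG, the class C site that Hes and Hey repressors can bind.
Dll4: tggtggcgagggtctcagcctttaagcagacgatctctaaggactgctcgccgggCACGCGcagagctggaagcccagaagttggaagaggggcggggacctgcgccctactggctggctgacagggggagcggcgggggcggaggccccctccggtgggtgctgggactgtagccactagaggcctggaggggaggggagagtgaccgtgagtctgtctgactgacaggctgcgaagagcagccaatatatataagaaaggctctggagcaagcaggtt
Jag1: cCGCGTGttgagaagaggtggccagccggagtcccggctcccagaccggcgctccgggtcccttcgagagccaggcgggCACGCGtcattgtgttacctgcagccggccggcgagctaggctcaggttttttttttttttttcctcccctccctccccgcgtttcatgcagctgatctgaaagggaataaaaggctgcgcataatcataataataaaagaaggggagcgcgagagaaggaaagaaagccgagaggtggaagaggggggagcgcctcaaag
The Dll4 window held 1 such match and the Jag1 window 2, and 8.65% of 32851 promoter windows of this length held at least 1. The Jag2 window and 1 of the 2 Dll1 windows also held 1 match each, so all 4 ligand genes had at least 1. The other Dll1 window and the windows of Notch1, Notch4 and Hey2 held 0. The 32851 windows were not matched to those of the members in base content. A match is a string of letters and no evidence of binding. RefSeq windows were matched for 7 of the 10 members, the others being Hes1, Hey1 and Heyl.

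Both receptors had lower means with anti-CD93, and in both control IgG replicate 2 was the highest library. Notch4 (chromosome 17, 34564268 to 34588503) had 586 and 591 CPM in the anti-CD93 libraries, against 633 and 888 CPM in the control IgG libraries. The anti-CD93 libraries lay below both others, and control IgG replicate 2 stood well above the rest. The log2 fold change was -0.37 (SE 0.20, adjusted p = 0.812 by edgeR). Leaving out control IgG replicate 2 gave -0.11. Leaving out control IgG replicate 1 gave -0.59, from a control group of replicate 2 alone. The fold change was -0.065 with the GC and length trend removed (edgeR adjusted p = 0.924) and -0.15 with scaling to the endothelial markers (edgeR adjusted p = 0.813).

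Notch1 (chromosome 2, 26457903 to 26516663), a receptor needed for vessel formation in the mouse embryo, had 558 and 593 CPM in the anti-CD93 libraries, against 559.5 and 726 CPM in the control IgG libraries. The groups overlapped, and only control IgG replicate 2 stood off. The log2 fold change was -0.16 (SE 0.19, adjusted p = 0.856 by edgeR). It turned to 0.038 when control IgG replicate 2 was left out, and was -0.34 with that replicate as the only control library. In its exons, 1389 bases, or 9.76%, are also annotated to 0610009E02Rik or Gm13568. For every 100 Notch4 reads there were 95.1 and 100.2 Notch1 reads with anti-CD93, against 88.4 and 81.7 with control IgG. The log2 difference was 0.20 (exact permutation p = 0.333). With the GC and length trend removed, the edgeR log2 fold changes were 0.040 for Notch1 and -0.065 for Notch4.

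The receptor genes Notch2 and Notch3, which are not among the members, were measured as well. Notch2 was at 93.8 and 100.8 CPM with anti-CD93, against 82.3 and 88.4 CPM with control IgG (log2 fold change 0.19, SE 0.17). Notch3, the receptor of pericytes and smooth muscle, was at 51.7 and 42.1 CPM with anti-CD93, against 42.09 and 40.3 CPM with control IgG (log2 fold change 0.19, SE 0.20). Neither gene overlapped between groups, although the nearest Notch3 values were 42.14 CPM with anti-CD93 and 42.09 CPM with control IgG, with adjusted p values of 0.823 and 0.843 by edgeR. Of 9 pericyte and smooth muscle markers, 8, all but Tagln, were above 1 CPM in every library, and the list summed to 999 and 827 CPM with anti-CD93 and to 964 and 834 CPM with control IgG. Per kb, Notch4 made up 57.3% and 56.6% of the 4 receptor genes with anti-CD93, against 60.1% and 63.2% with control IgG.

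Of the 4 target genes, Hes1, Hey1 and Hey2 overlapped between the groups, and Heyl did not. Hes1 (chromosome 16, 30064384 to 30067796), a repressor that many signals besides Notch can switch on, had 201 and 231 CPM in the anti-CD93 libraries, against 269.6 and 184 CPM in the control IgG libraries. The highest and the lowest value were both in the control IgG group. The log2 fold change was -0.071 (SE 0.22, adjusted p = 0.947 by edgeR), and its sign changed with the libraries kept. It was -0.32 without control IgG replicate 2, 0.23 without control IgG replicate 1 and 0.032 without anti-CD93 replicate 1. Hey1 (chromosome 3, 8663359 to 8667256), a Notch target of endothelium needed together with Hey2 for arterial vessels in the mouse embryo, had 130.1 and 120.1 CPM with anti-CD93, against 137 and 120.3 CPM with control IgG. The 4 values overlapped and were the closest of any member, with a log2 fold change of -0.041 (SE 0.17, adjusted p = 0.965 by edgeR). For every 100 Hes1 reads there were 64.7 and 52.0 Hey1 reads with anti-CD93, against 50.8 and 65.4 with control IgG, a log2 difference of 0.0089 (exact permutation p = 1).

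Heyl and Hey2 were the lowest of the 10 members. Heyl (chromosome 4, 123233556 to 123249875), a member of the Hey family known in vascular smooth muscle, had 111 and 86 reads with anti-CD93, against 87 and 106 reads with control IgG. In CPM these were 6.27 and 6.25 with anti-CD93 and 7.10 and 11.3 with control IgG. The groups did not overlap, and control IgG replicate 2 was highest. The log2 fold change was -0.55 (SE 0.34, adjusted p = 0.812 by edgeR). It was -0.18 when control IgG replicate 2 was left out, and -0.86 with that replicate as the only control library. It was -0.33 both with the GC and length trend removed and with scaling to the endothelial markers. Hey2 (chromosome 10, 30832359 to 30842801), the arterial member of the family, had 10 and 14 reads with anti-CD93, against 25 and 2 reads with control IgG. Each mate of a pair was counted by itself, and with halved counts Hey2 did not pass the filter on low counts. The control IgG libraries held both extremes. The log2 fold change was -0.56 (SE 0.97, adjusted p = 0.899 by edgeR), so no difference was detected.

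The Hey2 promoter is shown because it was the only one of the 8 windows matched to members that held the RBPJ-binding string GTGGGAA or its reverse complement TTCCCAC, marked in capitals (chr10:30842754-30843033, minus strand, same extent and source as above).
Hey2: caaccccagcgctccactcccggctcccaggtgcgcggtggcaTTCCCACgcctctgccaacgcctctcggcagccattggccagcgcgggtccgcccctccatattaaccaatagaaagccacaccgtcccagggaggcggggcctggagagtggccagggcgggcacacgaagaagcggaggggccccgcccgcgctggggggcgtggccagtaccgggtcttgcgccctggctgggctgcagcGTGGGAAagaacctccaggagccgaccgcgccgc
This window held 2 matches, and 5.94% of all 32851 windows held at least 1. Another string, the N box CACNAG or CTNGTG of Hes repressors, stood in 40.2% of all windows and in the windows of Dll4, Notch1 and 1 of the 2 of Dll1.

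Leaving out 1 library changed the calls of members in a single case. Without control IgG replicate 1, Dll4, Jag1, Notch1, Notch4 and Heyl passed the test, 5 of 10 members, but so did 26.8% of all genes tested, with control IgG replicate 2 as the sole control library. Without control IgG replicate 2, 0 of 10 members and 0.0767% of all genes passed. Without anti-CD93 replicate 1 or anti-CD93 replicate 2, 0 of 10 members passed, against 0.00% and 0.00590% of all genes. In such fits the lone library of a group is assumed to vary like the other group.

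**Figure D3:**
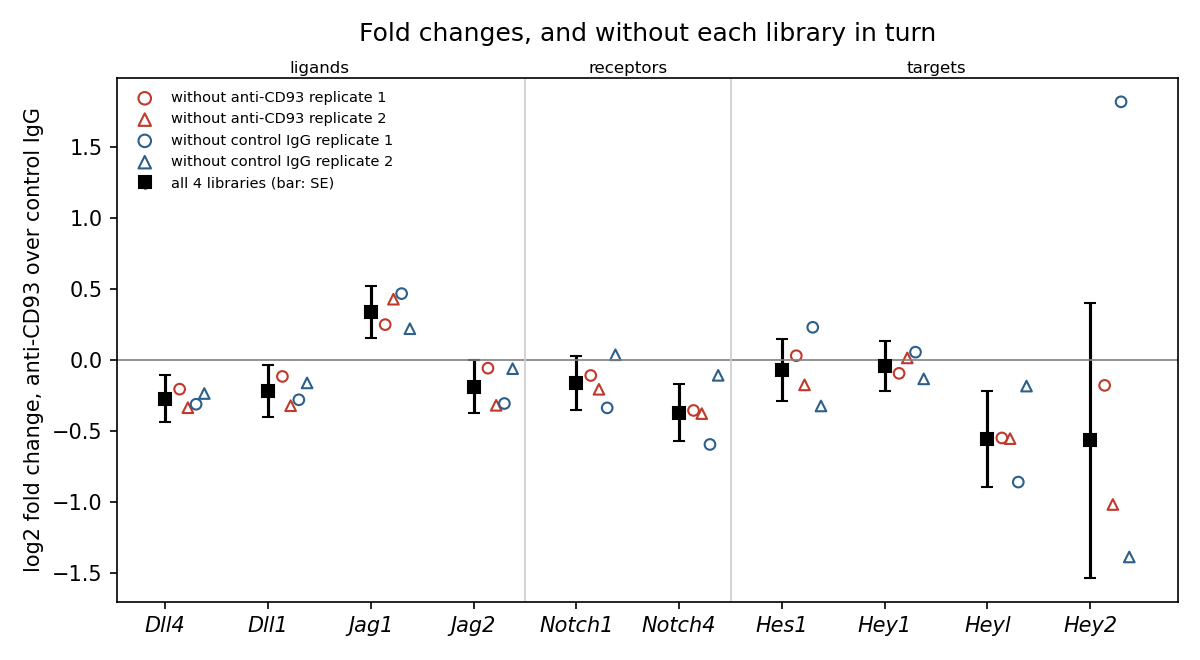
log2 fold change of each Notch gene, anti-CD93 over control IgG, from all 4 libraries (black squares, bars are SE) and with each library left out in turn (open symbols). Jag1 stays above 0 in all 4 fits with a library left out, Dll4, Dll1, Jag2, Notch4 and Heyl stay below 0, and Notch1, Hes1, Hey1 and Hey2 cross it.

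Set against the endothelial markers of the same library, the members split differently. The summed reads of the 9 markers were the base, and Jag1 had 2.80 and 2.48 reads per 100 marker reads with anti-CD93, against 2.17 and 1.51 with control IgG. That was a log2 difference of 0.54 (exact permutation p = 0.333, the smallest possible), with no overlap. It was 0.28 without control IgG replicate 2 and 0.80 without control IgG replicate 1. Dll4 had 6.59 and 7.22 reads per 100 marker reads with anti-CD93, against 7.76 and 6.76 with control IgG, a log2 difference of -0.071 with overlapping groups (exact permutation p = 0.667). The separation of the groups that Dll4 showed in CPM did not show on this base. Notch4 had 9.16 and 9.31 with anti-CD93, against 9.50 and 11.0 with control IgG, and Heyl 0.0980 and 0.0983 with anti-CD93, against 0.107 and 0.141 with control IgG. These 2 genes kept their order with no overlap, at log2 differences of -0.15 and -0.32 (exact permutation p = 0.333 for both). Without control IgG replicate 2 these were -0.041 for Notch4 and -0.12 for Heyl, and without control IgG replicate 1 they were -0.25 and -0.52. The other 6 members overlapped between the groups on this base. With scaling to these markers the median log2 fold change of all genes was 0.18, and 30.8% of all genes were below 0. On this base 0 is thus not the middle of all genes, and the share of all genes without overlap was not computed.

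**Figure D4:**
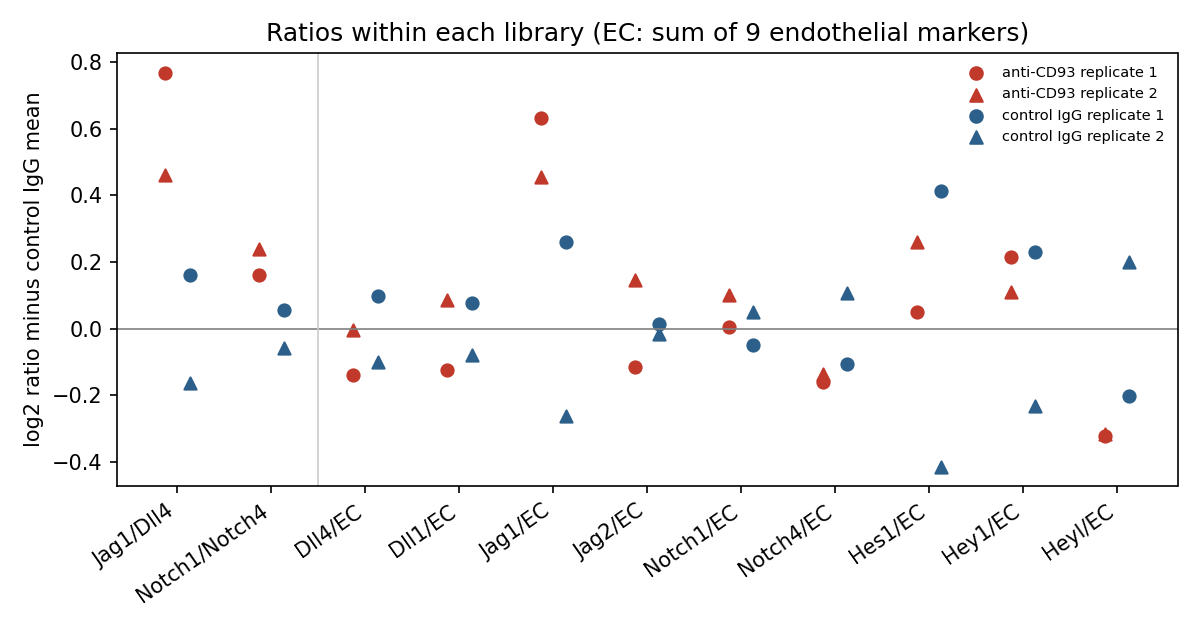
log2 ratio within each library minus the control IgG mean, for Jag1 to Dll4, Notch1 to Notch4 and 9 members to the sum of 9 endothelial markers (EC); Hey2 is left off because of its low counts. The anti-CD93 points lie above both control IgG points for Jag1 to Dll4, Notch1 to Notch4 and Jag1 to EC, and below both for Notch4 to EC and Heyl to EC.

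The rest of the Notch pathway was read from 9 lists of 71 genes, of which 63 were tested. Of these, 0 passed the test in either direction, 25 were above 0 and 38 below, and the median log2 fold change was -0.091, against -0.0092 over all genes. Without control IgG replicate 2 these were 33 above and 30 below, with a median of 0.0051. Removing each library's GC and length trend gave 37 above and 26 below, with a median of 0.014. Scaling to the endothelial markers gave 45 above and 18 below, with a median of 0.11. On that scaling the median of all genes was 0.18. With control IgG replicate 1 left out, 26 of the 73 tested Notch genes passed, the 5 members above included, against 26.8% of all genes. In all 4 libraries, both anti-CD93 values lay above both controls in 12 and below both in 15 of the 63, against 20.1% and 19.7% of all genes. The 8 genes left out of the test for low counts were Dll3, Dlk2, Neurl1a, Aph1c, Hes2, Hes3, Hes5 and Hes7.

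Of the genes that prepare ligand and receptor, 14 of 19 tested were below 0, against 50.9% of all genes. Epn1, an endocytic adaptor that acts on ligands, was at 99.9 and 99.97 CPM with anti-CD93, against 104 and 171 CPM with control IgG, while Mib1, the ubiquitin ligase of ligands, was at 267 and 281 CPM with anti-CD93, against 277 and 178 CPM with control IgG. Of the Fringe enzymes, which add sugar to receptors, Rfng was at 10.8 and 9.23 CPM with anti-CD93, against 10.4 and 21.2 CPM with control IgG, and Mfng at 42.1 and 46.3 CPM with anti-CD93, against 47.1 and 62.3 CPM with control IgG. In these 4 genes control IgG replicate 2 was farthest from the other libraries. For receptor cleavage, Adam10, the protease of the outer cut, was at 401 and 423 CPM with anti-CD93, against 391 and 277 CPM with control IgG, and the gamma-secretase subunit gene Psenen at 11.0 and 12.4 CPM with anti-CD93, against 14.4 and 16.9 CPM with control IgG. None passed (adjusted p = 0.812 to 0.818 by edgeR).

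In the nuclear list 7 of 13 genes were above 0 and 6 below. Rbpj, the DNA-binding partner of cut Notch, was at 49.4 and 52.7 CPM with anti-CD93, against 43.0 and 30.2 CPM with control IgG. The groups of Rbpj did not overlap, and control IgG replicate 2, at 30.2 CPM, lay farthest from the other libraries. Its log2 fold change was 0.48 (SE 0.22, adjusted p = 0.812 by edgeR). The corepressor gene Ctbp1 was at 83.3 and 90.4 CPM with anti-CD93, against 96.9 and 125 CPM with control IgG. Of the genes of receptor turnover, 7 of 9 were below 0, against 50.9% of all genes. Among them, the Deltex ubiquitin ligase gene Dtx1 was at 7.34 and 11.3 CPM with anti-CD93, against 11.5 and 16.9 CPM with control IgG. Dtx3, also a Deltex gene, was at 30.2 and 35.1 CPM with anti-CD93, against 33.0 and 48.8 CPM with control IgG. Nrarp, a feedback inhibitor that Notch itself switches on, was at 7.80 and 8.21 CPM with anti-CD93, against 7.42 and 5.25 CPM with control IgG, and Hes6 at 5.88 and 7.85 CPM with anti-CD93, against 5.55 and 6.42 CPM with control IgG.

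Arterial, tip and venous genes linked to Notch in endothelium did not pass either. Of 9 arterial genes linked to Notch, 3 were above 0 and 6 below, with a median of -0.22. Of all genes 50.9% were below 0, with a median of -0.0092. Cxcr4, a chemokine receptor gene, was at 121 and 99.7 CPM with anti-CD93, against 105 and 45.1 CPM with control IgG, and the kinase gene Bmx at 3.45 and 3.78 CPM with anti-CD93, against 4.73 and 6.53 CPM with control IgG. Of 8 tip and venous genes that Notch holds down, 4 were above 0 and 4 below. Esm1, a secreted proteoglycan of tip cells, was at 352 and 251 CPM with anti-CD93, against 235 and 172 CPM with control IgG, with no overlap. Its log2 fold change of 0.56 (SE 0.23, adjusted p = 0.812 by edgeR) had the only unadjusted p under 0.05 among the 63 genes. Ephb4, the venous ephrin receptor gene, was at 284 and 311 CPM with anti-CD93, against 318 and 472 CPM with control IgG.

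Across the 4 libraries, the genes with a pattern most like that of Dll4 were Pbx3, Angptl2 and Wdr24. Their distances from Dll4 were 0.017, 0.025 and 0.031 on the scale of centred log2 CPM, the smallest among 11020 genes of at least 5 CPM. With only 4 libraries this is a description of these values.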

How the data were processed

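Total RNA of sorted endothelial cells was measured in 4 libraries, 2 per group, made with a stranded low-input kit and sequenced in pairs of 150 bases, per the labels' protocols. The authors deposited raw read counts per gene name, made with featureCounts 2.0.1 on GENCODE vM25 (GRCm38) with no paired-end or strand option, per the file headers, so each mate was counted by itself and strand was ignored. STAR 2.7.5b and DESeq2 1.28.1 are named in the submitters' processing notes. A second deposited table, called normalized, held the same counts (0 of 221468 cells differed).

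Low-count genes were dropped with filterByExpr (minimum count 10), and the rest were scaled by TMM and tested with edgeR 4.0.16 (quasi-likelihood, robust, group as the only term, R 4.3.3), with Benjamini-Hochberg adjusted p under 0.05 over all 16945 genes. Levels per kb use the exon length of the deposited table. DESeq2 1.42.0 and limma-voom 3.58.1 were alternatives, with other scalings, count filters, dispersion, halved counts, a replicate block and each library left out, and the removal of each library's GC and length trend was added after the data were seen. The scripts were tested on simulated data. Members and lists were chosen with earlier results of these data known. Named genes were all members, the 2 genes with the smallest p of each other pathway list, the 3 genes most like Dll4, and Cd93, Pecam1 and Ptprc. Epcam and Cdh1 were chosen after their values were seen. Depth was 9364294 to 17813993 assigned reads, and 2 libraries per group limit the precision. Promoter sequences are those of RefSeq.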

Additional observations from a re-analysis of the deposited data

How the results depend on the processing

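The fold changes of the 10 members were computed in 16 other fits, and 139 of 158 values kept their sign and their side of the test. With 1 library left out, the number of genes called ran from 0 to 2386 higher and from 0 to 2163 lower, genes at an unadjusted p under 0.05 from 160 to 6683, members called from 0 to 5 and members below 0 from 6 to 8. With no count filter 26 genes were called higher and 22 lower, with 1863 at an unadjusted p under 0.05, and Hey1 was at 0.0053; DESeq2 called 2 higher and 3 lower. Deviations of same-numbered libraries had a correlation of -0.016 across genes. With 2 libraries per group this is a single contrast, which cannot show whether the replicate numbers pair the libraries. With a replicate block 11 genes were called higher and 3 lower, with 0 members among them. Scaling to the endothelial markers moved the median of all genes by 0.19, to 0.18, left 5 members below 0, and put Jag2 at 0.022, Notch1 at 0.053, Hes1 at 0.099 and Hey1 at 0.15, all under that median, while Jag1 at 0.52 lay above it. With each library's GC and length trend removed, Jag2 was at 0.11, Notch1 at 0.040 and Hey1 at 0.084, and 6 members lay below 0, while Jag1 was at 0.33. With 1 library left out the fold changes ran from -0.32 to -0.11 for Dll1, -0.32 to -0.056 for Jag2, -0.34 to 0.038 for Notch1, -0.32 to 0.23 for Hes1, -0.13 to 0.057 for Hey1 and -1.38 to 1.82 for Hey2. The log2 ratio differences ran from -0.17 to 0.19 for Hey1 to Hes1, -1.30 to 1.77 for Hey2 to Hey1 and, against endothelial markers, from -0.12 to 0.086 for Dll1, -0.17 to 0.029 for Dll4, -0.12 to 0.15 for Jag2, -0.26 to 0.57 for Hes1, -0.068 to 0.39 for Hey1, -1.36 to 2.16 for Hey2, 0.28 to 0.80 for Jag1, 0.0037 to 0.10 for Notch1, -0.25 to -0.041 for Notch4 and -0.52 to -0.12 for Heyl. The cause of these changes was not tested. Over all these fits Jag1 ran from 0.22 to 0.52, and Dll4 from -0.33 to -0.058, Dll1 from -0.32 to -0.017, Notch4 from -0.59 to -0.065 and Heyl from -0.86 to -0.18. The values nearest 0 came with the GC and length trend removed for Dll4 and Notch4, with endothelial marker scaling for Dll1, and without control IgG replicate 2 for Jag1 and Heyl. Hey2 had only 2 to 25 reads per library, and the part of depth in its spread was not tested.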
